A study of Homo sapiens with 6 samples.

Results

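The transcripts described here encode the subunits of the transcription factor NF-kappaB and the proteins that hold it in check. They were chosen by gene symbol, as the rows of the deposited table named NFKB1, NFKB2, REL, RELA, RELB, NFKBIA, NFKBIB, NFKBIE, NFKBIZ and TNFAIP3. All 10 had a row of their own among the 29176 genes of the table, and all 10 passed the filter on low counts. RNA sequencing was done on HaCaT, an established human keratinocyte line that became immortal without a transforming virus. In 3 samples the cells carried a small interfering RNA against EIF4E, the gene of the protein that binds the mRNA cap (si-eIF4E+M5), and in 3 samples a control siRNA took its place (si-NC+M5). Every sample had been stimulated with M5, the stimulus that the series title gives for its psoriasis model in culture, and total RNA was collected at 48 hours. No unstimulated sample enters the comparison, so nothing below measures the response to M5 itself. EIF4E itself had 21.0, 18.4 and 23.5 CPM (library counts scaled by TMM to a common total) in the si-eIF4E+M5 libraries and 50.9, 48.2 and 51.2 CPM in the si-NC+M5 libraries. Every knockdown library lay below every control, and the level was 41.9% of the control (log2 fold change -1.25 ± 0.09 (SE), adjusted p = 7.2e-05 in edgeR).

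NF-kappaB acts as pairs of Rel-domain proteins. RELA, RELB and REL carry domains that switch genes on, while NFKB1 and NFKB2 are made as the precursors p105 and p100 and are cut to the DNA-binding subunits p50 and p52. The I kappa B proteins encoded by NFKBIA, NFKBIB and NFKBIE keep the pairs in the cytoplasm until a kinase marks them for destruction. NFKBIZ encodes a nuclear relative that works on DNA together with p50 and is known in keratinocytes for its part in the response to IL-17A, and TNFAIP3 encodes A20, a ubiquitin-editing enzyme that shuts the upstream signal down. Several of these genes are themselves switched on by NF-kappaB, which makes them a feedback loop. Protein amount, processing and location, by which most of this control is exerted, were not measured here.

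TNFAIP3 fell in the knockdown cells, to 66.3% of the control level. It was the only one of the 10 transcripts whose p, from the quasi-likelihood test of edgeR and adjusted by Benjamini-Hochberg over all 18022 genes tested, was under 0.05. Thus 1 of 10 was called, lower, and 0 were called higher, while 15.8% of all tested genes were called, 8.4% as lower and 7.44% as higher. In this fit the share of called genes in the set is therefore not above that of the whole table. With a block for the replicate number, 5 of the 10 were called, 1 higher and 4 lower, beside 3414 of all 18022 genes tested. NFKB2, RELA, NFKBIA and TNFAIP3, or 4 of the 10, had groups that did not overlap, as 33.8% of all tested genes did. At an unadjusted p under 0.05 there were also NFKB2, RELA and NFKBIZ, with negative log2 fold changes, and NFKBIA with a positive one, which makes 5 of the 10, beside 28.6% of all tested genes. The median log2 fold change of the 10 was -0.13, against -0.01 over all tested genes.

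The libraries held between 71044961 and 74246501 counts, and each of the 10 transcripts had between 1670 and 23503 counts in each library. The keratinocyte genes KRT5, KRT14, TP63, DSP, CDH1 and ITGB4 were all present, the lowest at 27.2 FPKM in any library. In contrast, 9 of 11 listed markers of fibroblasts, leukocytes, endothelium and melanocytes had a row and summed to 1.87 to 2.28 FPKM in si-eIF4E+M5 and 1.18 to 1.502 FPKM in si-NC+M5 libraries. The summed keratinocyte genes also moved with the group, at 1508 to 1655 FPKM in si-eIF4E+M5 and 1327 to 1421 FPKM in si-NC+M5 libraries. Of these genes only KRT5 was called, higher, at 605 FPKM in si-eIF4E+M5 and 407 FPKM in si-NC+M5 cells. KRT14 and TP63 had log2 fold changes of 0.02 and 0.04, while DSP, CDH1 and ITGB4 had -0.34, -0.04 and -0.08. COL1A1 was called higher among the other markers. The part of these shifts in the results below was not tested. The labels do not say whether the replicates were separate cultures, so the p-values measure the spread between these samples only. In such bulk samples, fewer cells with a transcript and less of it per cell cannot be told apart.

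The start of TNFAIP3 and that of NFKBIA are shown because they carry the sites through which NF-kappaB is known to drive both genes, and because among the inhibitors of the 10 these had the largest negative and the largest positive log2 fold change. Each window runs from 250 bases before to 50 bases after the annotated start in RefSeq (GRCh38.p14) and reads in the direction of the gene. Capitals mark matches to the kappaB consensus, a pattern of 10 bases that was searched on both strands. TNFAIP3 (ENSG00000118503) lies on the plus strand, its window at chr6:137867009-137867308, and the deposited table places the gene at chr6:137867214-137883312 in GRCh38. NFKBIA (ENSG00000100906) lies on the minus strand, its window at chr14:35404700-35404999 and the gene at chr14:35401513-35404749.

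TNFAIP3: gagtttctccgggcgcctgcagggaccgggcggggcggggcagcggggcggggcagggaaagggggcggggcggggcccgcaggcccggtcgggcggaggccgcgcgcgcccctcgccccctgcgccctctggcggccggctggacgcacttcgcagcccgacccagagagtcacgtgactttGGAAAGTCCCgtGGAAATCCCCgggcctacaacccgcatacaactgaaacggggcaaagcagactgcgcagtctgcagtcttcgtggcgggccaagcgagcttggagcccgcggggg

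NFKBIA: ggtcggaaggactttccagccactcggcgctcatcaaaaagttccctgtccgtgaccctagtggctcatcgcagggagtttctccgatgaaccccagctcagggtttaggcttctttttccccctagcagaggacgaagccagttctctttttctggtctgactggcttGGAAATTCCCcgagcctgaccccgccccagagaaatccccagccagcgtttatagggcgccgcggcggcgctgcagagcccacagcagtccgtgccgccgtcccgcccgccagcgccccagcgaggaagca

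TNFAIP3 held 2 matches, the first base of each 67 and 55 bases before the start, and NFKBIA held 1, 81 bases before it. Of the 10 genes 8 had a window in the RefSeq table, and 7 of these held a match in at least 1 annotated start. Counted by window, 9 of their 14 held one, beside 11.3% of all 35116 promoter windows. The exception was RELA, for which neither window held these letters. The matches of the subunit genes included GGGAATTTCC in NFKB1, 49 bases before its start, GGGAAATTCC in REL, 47 bases before its start, and GGGACTTTCC in NFKB2, 21 bases before one of its annotated starts. NFKBIZ carried GGGAATTTCC 223 bases before its first start. A match describes the letters and not binding. Of the 7 genes with a match, 1, TNFAIP3, passed the test in edgeR, beside 15.8% of all tested genes.

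**Figure D1:**
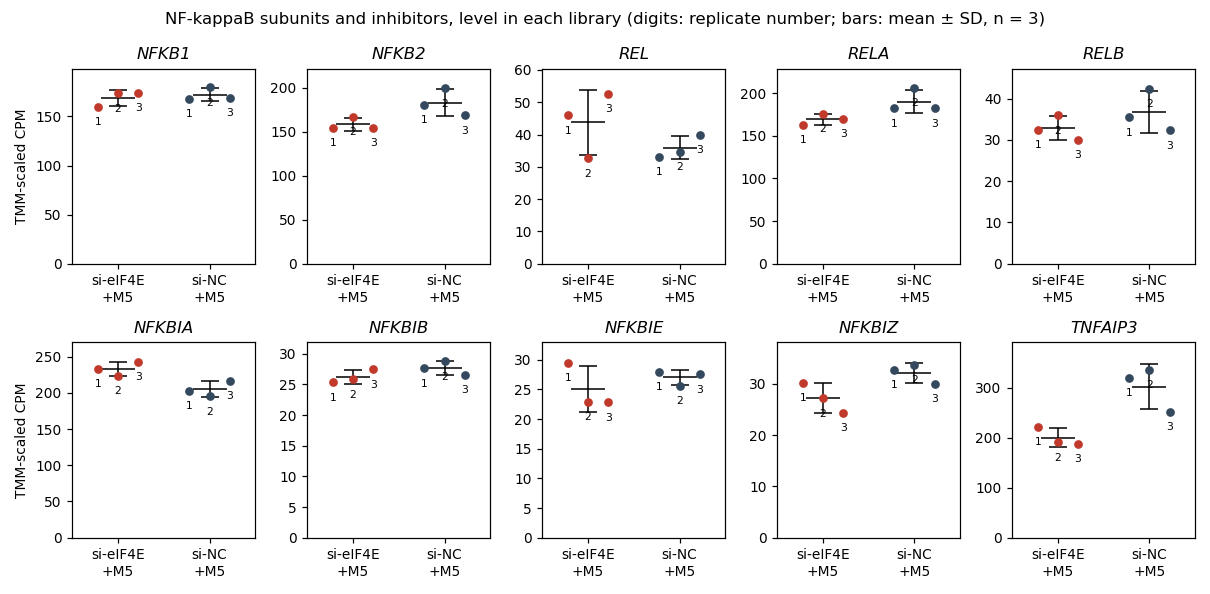
Level of each of the 10 transcripts in TMM-scaled CPM (vertical axes, from 0), with 1 point per library, its replicate number beneath it, and bars for mean ± SD over 3 libraries. The si-eIF4E+M5 libraries of TNFAIP3 sit between 188 and 222 CPM, all below the si-NC+M5 libraries at 252 to 336 CPM, while most other panels show overlapping groups.

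Among the subunits, NFKB1 had the log2 fold change nearest to 0. It stood at 159.6, 173 and 174 CPM in the si-eIF4E+M5 libraries and at 168, 179.6 and 169 CPM in the si-NC+M5 libraries. The groups overlapped, though replicate 1 of the knockdown lay below every control and replicate 2 of the control above every knockdown library. Its log2 fold change was -0.03 with a 95% confidence interval of -0.16 to 0.11, or 89.5 to 108% of the control level (adjusted p = 0.83 in edgeR). NFKB2, the precursor of the alternative pathway, had 154, 167 and 154 CPM in si-eIF4E+M5 and 181, 199 and 169 CPM in si-NC+M5 libraries. All 3 knockdown libraries were below all 3 controls, and NFKB2 is thus 1 of the 4 without overlap. The log2 fold change of NFKB2 was -0.21 ± 0.07 (SE), and it did not pass (adjusted p = 0.081 in edgeR).

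RELA, the main activating subunit of the canonical pathway, read 163, 176 and 169.8 CPM in si-eIF4E+M5 against 182, 206 and 182 CPM in si-NC+M5 libraries. Again the groups did not overlap, and again the difference did not pass, at a log2 fold change of -0.17 ± 0.07 and an adjusted p of 0.13 in edgeR. RELB, its counterpart in the alternative pathway, ran from 30.1 to 36.0 CPM with the EIF4E siRNA and from 32.3 to 42.4 CPM with the control siRNA (log2 fold change -0.16 ± 0.11, adjusted p = 0.37 in edgeR). The groups of RELB overlapped.

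REL, which encodes c-Rel, was the least abundant subunit in FPKM. It had 46.0, 32.7 and 52.5 CPM in the si-eIF4E+M5 libraries and 33.2, 34.7 and 40.0 CPM in the si-NC+M5 libraries. Replicate 2 of the knockdown lay below every control, and the other two knockdown libraries lay above every control. The log2 fold change of 0.28 ± 0.15 did not pass (adjusted p = 0.25 in edgeR), but without si-eIF4E+M5 replicate 2 it was 0.45 and passed (adjusted p = 0.027 in edgeR). GENCODE v29 places a noncoding gene, AC010733.2, on the same strand over 43.3% of the exon bases of REL, so reads there can be credited to either gene. AC010733.2 had 102, 412 and 108 counts in the si-eIF4E+M5 libraries and 61, 73 and 118 counts in the si-NC+M5 libraries, its highest count falling in the library where the CPM of REL was lowest. With the counts of both genes added, replicate 2 of the knockdown held 38.1 CPM of the library total, between the controls at 34.1 to 41.0 CPM, and the log2 fold change was 0.33 ± 0.12 (adjusted p = 0.11 in edgeR).

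None of the 3 classical inhibitors passed the test in edgeR, and 1 of them, NFKBIA, had an unadjusted p under 0.05. NFKBIA, which encodes I kappa B alpha, the fast-turning inhibitor of RELA pairs, had 233, 224 and 243 CPM in si-eIF4E+M5 libraries and 203, 195 and 217 CPM in si-NC+M5 libraries. Each knockdown library exceeded each control. The log2 fold change was 0.19 ± 0.06, with a 95% confidence interval of 0.05 to 0.32, or 103 to 125% of the control level, and the adjusted p was 0.070 in edgeR. NFKBIA is a borderline case, since it was called higher in 6 of 15 other settings, among them the DESeq2 Wald test (adjusted p = 0.015) and limma on log2(FPKM + 1) (adjusted p = 0.046).

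NFKBIB, which encodes I kappa B beta, ranged from 25.4 to 27.5 CPM in si-eIF4E+M5 and from 26.6 to 28.8 CPM in si-NC+M5 libraries (log2 fold change -0.08 ± 0.07, adjusted p = 0.56 in edgeR). NFKBIE, which encodes I kappa B epsilon, read 29.5, 23.0 and 22.8 CPM in si-eIF4E+M5 and 28.0, 25.6 and 27.5 CPM in si-NC+M5 libraries. Here replicate 1 of the knockdown was the highest of all 6 libraries and the other two knockdown libraries were the lowest. Its log2 fold change of -0.11 ± 0.11 did not pass (adjusted p = 0.58 in edgeR).

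NFKBIZ, the nuclear member, had 30.2, 27.1 and 24.4 CPM in si-eIF4E+M5 libraries and 32.8, 33.7 and 30.0 CPM in si-NC+M5 libraries. The highest knockdown library just overlapped the lowest control. The log2 fold change was -0.24 ± 0.09, with a 95% confidence interval of -0.44 to -0.03, and it did not pass (adjusted p = 0.12 in edgeR). Among the I kappa B relatives outside the 10, BCL3, a nuclear partner of p50 and p52, had a log2 fold change of 0.03 ± 0.07, NFKBID of 0.06 ± 0.21 and NFKBIL1 of -0.06 ± 0.14, and 0 of these 3 passed in edgeR, with 0 at an unadjusted p under 0.05 and 0 in each of 15 other settings, DESeq2 included.

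**Figure D2:**
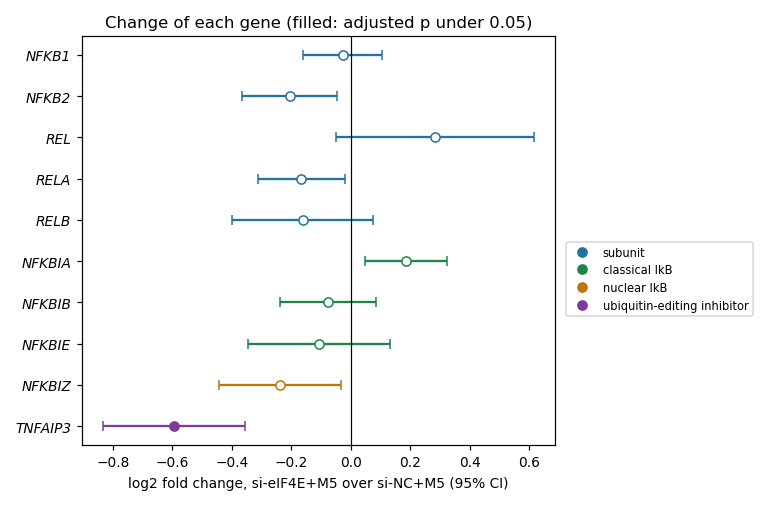
Log2 fold change of each transcript, si-eIF4E+M5 over si-NC+M5 (horizontal axis), with its 95% confidence interval, coloured by the role of the protein. The interval of TNFAIP3 lies furthest from 0, and those of NFKB2, RELA, NFKBIA and NFKBIZ exclude 0 without passing after adjustment over all genes.

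TNFAIP3 had 222, 191 and 188 CPM in the si-eIF4E+M5 libraries and 319.7, 336 and 252 CPM in the si-NC+M5 libraries, from 16628, 14057 and 13794 counts against 22746, 23503 and 18421 counts. The groups were separate, although replicate 3 of the control lay closer to the knockdown libraries than to the other controls. The means were 200.5 ± 18.7 CPM and 302 ± 44.8 CPM (SD, n = 3 each). The log2 fold change was -0.59 ± 0.11 and the adjusted p was 0.0050 in edgeR, with a 95% confidence interval of 56.2 to 78.2% of the control level. Permuting the 6 libraries over the groups gave an exact two-sided p of 0.1 for its log2 CPM, which is the lowest possible with 3 against 3. The call held in all 15 other settings, with log2 fold changes between -0.70 and -0.51 and adjusted p between 3.8e-08 and 0.037. Its size exceeded that of 85.0% of the tested genes. An antisense gene, AL357060.1, shares 1.88% of the exon bases of TNFAIP3 and held 246 to 357 counts per library, and the strand setting of the counting is not given.

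By the likeness of their log2 CPM across the 6 libraries, the genes nearest to TNFAIP3 among 6771 with a mean FPKM of at least 5 were SNAPC4 (Pearson r = 0.992), PLK3 (0.992) and BOP1 (0.990). PLK3 encodes a stress-activated polo-like kinase and BOP1 a protein of ribosome assembly. A further count shows how little such a match selects, since 82 genes reached r above 0.95 over these 6 points, which share the split between groups.

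Replicate 2 held the highest si-NC+M5 level of 7 of the 10, among them TNFAIP3, NFKBIZ, NFKB2 and RELB, and replicate 3 held the lowest of 6, the same 4 included. Over all tested genes, 32.3% had their highest control level in replicate 2 and 34.1% their lowest in replicate 3. NFKBIA ran the other way, lowest in replicate 2 and highest in replicate 3 of the control. In the knockdown libraries no replicate held the highest level of more than 4 or the lowest of more than 5.

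Levels can be set side by side between genes only per length, in FPKM (fragments per kilobase of transcript, scaled to the library). NFKBIA was the most abundant of the 10 in both groups, at 94.8 ± 4.43 FPKM in si-eIF4E+M5 and 81.7 ± 4.61 FPKM in si-NC+M5 libraries, above 97.9% of the tested genes by its mean. TNFAIP3 came next, at 38.5 ± 4.49 FPKM in si-eIF4E+M5 and 56.9 ± 8.45 FPKM in si-NC+M5 libraries. NFKB2 (32.4 ± 1.23 FPKM in si-eIF4E+M5, 36.6 ± 2.92 in si-NC+M5), RELA (29.9 ± 0.588 and 32.9 ± 2.10) and NFKB1 (25.6 ± 0.684 and 25.6 ± 0.768) followed in both groups. The libraries of NFKB2 and RELA overlapped in the controls and not in the knockdown.

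A lower tier held NFKBIB, RELB and NFKBIE, at 10.9, 10.5 and 9.40 FPKM in si-eIF4E+M5 and 11.2, 11.5 and 9.90 FPKM in si-NC+M5 libraries. The libraries of NFKBIB and RELB overlapped in both groups, so their order is not fixed. NFKBIZ (4.46 ± 0.570 FPKM in si-eIF4E+M5, 5.14 ± 0.318 in si-NC+M5) and REL (3.21 ± 0.755 and 2.58 ± 0.246) closed the list. The FPKM of REL, and so its share below, depends on how reads shared with AC010733.2 were counted, which is not given.

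**Figure D3:**
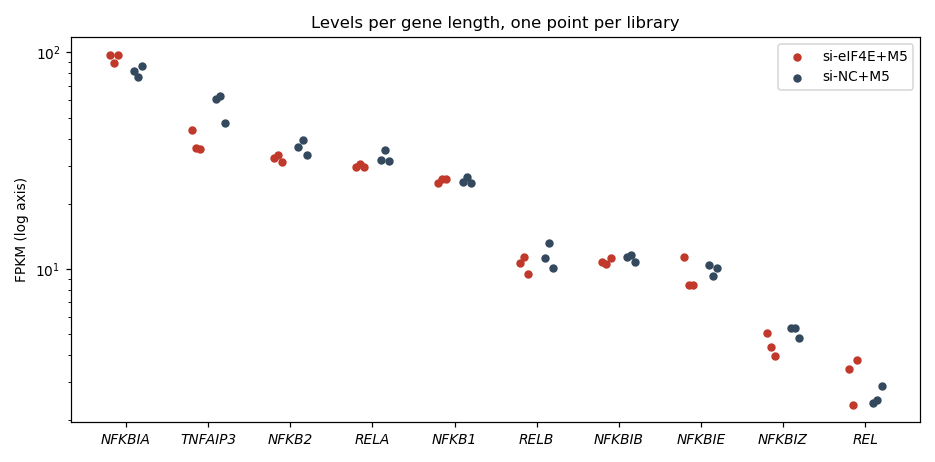
FPKM of the 10 transcripts on a log axis, 1 point per library, ordered by the mean in si-NC+M5. NFKBIA is on top in both groups, TNFAIP3, NFKB2, RELA and NFKB1 form the next tier, and NFKBIZ and REL are lowest.

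Of the summed subunit FPKM, RELA made up 29.4 ± 0.18% in si-eIF4E+M5 and 30.1 ± 0.38% in si-NC+M5 libraries, and NFKB2 31.9 ± 0.69% and 33.5 ± 0.74%. NFKB1 made up 25.2 ± 0.73% in si-eIF4E+M5 and 23.5 ± 0.83% in si-NC+M5 libraries. RELB stayed near 10.3% and 10.5% of the sum, and REL at 3.16% and 2.38%. The shares of NFKB1, NFKB2 and RELA did not overlap between groups, while those of REL and RELB did, and no share differed by more than a few percentage points. No test was run on the shares, which sum to a fixed total within a library.

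Ratios within a library do not depend on how libraries are scaled. NFKB2 over NFKB1 was 1.31, 1.30 and 1.195 in si-eIF4E+M5 libraries and 1.45, 1.496 and 1.35 in si-NC+M5 libraries, a log2 difference of -0.18. NFKBIZ over NFKBIA was 0.0521, 0.0487 and 0.0403 in si-eIF4E+M5 and 0.0649, 0.0694 and 0.0553 in si-NC+M5 libraries, a log2 difference of -0.43. For both ratios the groups were separate. The two-sided exact permutation p was 0.1 for each, the smallest this design allows, and 0.15 after Benjamini-Hochberg adjustment over the 3 ratios tested. RELB over RELA, at 0.351 ± 0.027 in si-eIF4E+M5 and 0.349 ± 0.026 in si-NC+M5 libraries (SD, n = 3 each), gave an exact permutation p of 1.

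The summed FPKM of the 3 classical inhibitors was 119, 109 and 117 in si-eIF4E+M5 libraries and 103, 97.9 and 107 in si-NC+M5 libraries. That of the 5 subunits was 101, 104 and 100.2 in si-eIF4E+M5 and 107, 117 and 103 in si-NC+M5 libraries. Inhibitor over subunit transcript was therefore 1.18, 1.048 and 1.17 with the EIF4E siRNA and 0.963, 0.838 and 1.04 with the control siRNA, values that only just fail to overlap. NFKBIA supplies most of the inhibitor sum in each library. The ratio is a description of transcripts, and no test was run on it.

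**Figure D4:**
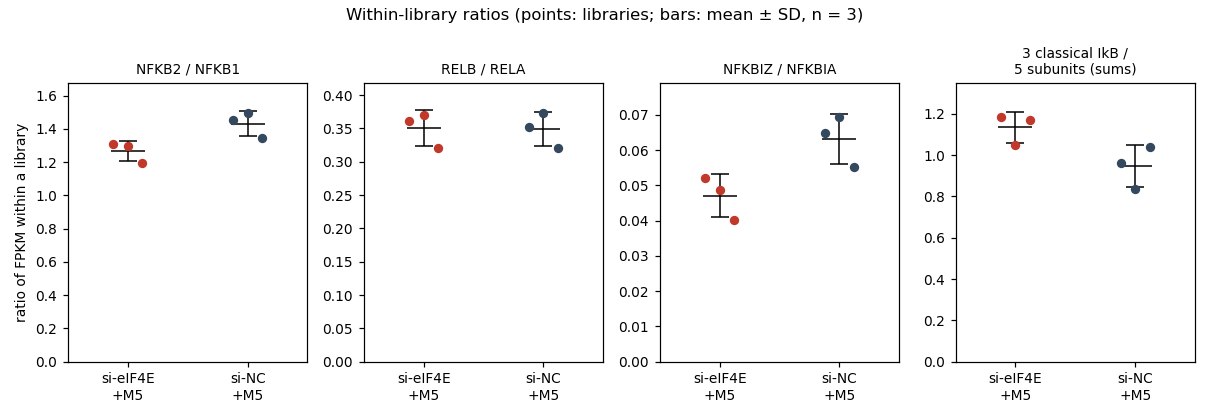
Ratios of FPKM within each library (vertical axes, from 0), 1 point per library with mean ± SD over 3. NFKB2 over NFKB1 and NFKBIZ over NFKBIA are lower in every si-eIF4E+M5 library, RELB over RELA is level at 0.351 and 0.349, and the inhibitor to subunit ratio is 1.048 to 1.18 against 0.838 to 1.04.

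Of 14 tested genes of the I kappa B kinase complex and of I kappa B destruction, 1 rose, 1 fell and 12 did not pass, a share of 14.3% called beside 15.8% of all genes. TBK1, a kinase related to the I kappa B kinases, rose (log2 fold change 0.29 ± 0.07, adjusted p = 0.023 in edgeR). MAP3K7, which encodes TAK1, the kinase that switches the I kappa B kinases on, fell to 4.79 ± 0.223 FPKM in si-eIF4E+M5, against 6.46 ± 0.497 FPKM in si-NC+M5 cells (-0.46 ± 0.07, adjusted p = 0.0029 in edgeR). The kinase genes CHUK and IKBKB and the scaffold gene IKBKG had log2 fold changes of 0.04, -0.06 and -0.16 that did not pass, and were chosen after their values were seen. The count called was 1 without si-eIF4E+M5 replicate 2 or 3 or si-NC+M5 replicate 1 or 2. It was 4 when genes with a mean FPKM under 5 were dropped, a filter under which 2192 of all 6772 tested genes were called.

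Of 16 tested adaptors that link the TNF, IL-1 and IL-17 receptors to these kinases 1 fell and 0 rose (0 with a positive fold change at an unadjusted p under 0.05). This made 6.25% called, below the 15.8% of all tested genes. The gene that fell was RBCK1, encoding the HOIL-1 subunit of the linear ubiquitin ligase (-0.36 ± 0.09, adjusted p = 0.021 in edgeR). Its call was lost without si-eIF4E+M5 replicate 1 or 3 or si-NC+M5 replicate 2, where 0 of the adaptors passed in edgeR.

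The other feedback inhibitors went both ways, with 4 of 16 higher, 4 lower and 8 not called, and a median log2 fold change of 0.02. This made 50% called, beside 15.8% of all tested genes, in a list chosen with earlier results known. TNIP1, which encodes the ubiquitin-binding partner of A20, fell as TNFAIP3 did, to 63.4 ± 3.71 FPKM in si-eIF4E+M5, against 76.7 ± 3.94 FPKM in si-NC+M5 cells (-0.30 ± 0.07, adjusted p = 0.016 in edgeR). ITCH, a ubiquitin ligase of the same A20 complex, fell by 0.20 on the log2 scale. ZFP36, encoding the mRNA-decay factor tristetraprolin (-0.68 ± 0.09), and PDLIM2 (-0.98 ± 0.16), a ligase for nuclear RELA, fell as well. On the other side TNIP3, a relative of TNIP1 (0.40 ± 0.10), and CYLD, the deubiquitinase (0.24 ± 0.06), rose. So did TRAFD1 (0.67 ± 0.09) and USP18 (0.49 ± 0.13), which are known as interferon-induced genes. With any 1 library left out, 3 to 5 of these 16 were called.

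Of 34 tested genes widely described as NF-kappaB targets, 14 fell, 5 rose and 15 did not pass, with a median log2 fold change of -0.23. This made 55.9% called, beside 15.8% of all tested genes. The largest falls among those of at least 1 FPKM were in the cytokine genes CSF2, IL1B, IL1A and CCL20, which kept 27.0%, 41.0%, 46.5% and 48.7% of their control level. IL1A stood at 83.1 ± 3.65 FPKM in si-eIF4E+M5 and 175 ± 14.3 FPKM in si-NC+M5 cells. In the same list CCL2, a chemokine for monocytes, rose to 227 ± 13.4 FPKM in si-eIF4E+M5, against 108 ± 20.6 FPKM in si-NC+M5 cells (1.04 ± 0.12, adjusted p = 5.5e-04 in edgeR). MMP9 (0.54 ± 0.10), TNFAIP8 (0.49 ± 0.07) and SOD2 (0.33 ± 0.07) rose too. The fifth riser, CX3CL1, had 26, 12 and 19 counts in si-eIF4E+M5 and 4, 0 and 0 counts in si-NC+M5 libraries, and is near the detection floor. The list is drawn from general knowledge of the pathway, but it was chosen with earlier results of these data known. Its share of called genes is therefore not an independent result. These genes answer to other factors as well.

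Genes described as needing NFKBIZ in stimulated keratinocytes were divided. Of 11 tested, 5 fell, 2 rose and 4 did not pass (4 called without si-NC+M5 replicate 2). This made 63.6% called, beside 15.8% of all tested genes, in a list chosen with earlier results known. The full list held 15 genes. DEFB4B and IL36A had no row, and IL17C and DEFB4A, at 0 to 9 counts per library, were not tested. The list shares CCL20, CXCL8 and CSF3 with the previous one. IL36G, encoding the epidermal cytokine IL-36 gamma, fell to 4.56 ± 0.344 FPKM in si-eIF4E+M5, against 9.55 ± 0.707 FPKM in si-NC+M5 cells (-1.09 ± 0.12, adjusted p = 4.6e-04 in edgeR). PI3, the protease inhibitor elafin, fell by 0.85 ± 0.07 on the log2 scale (adjusted p = 1.3e-04 in edgeR). IL23A fell by 1.04 ± 0.31 and only just passed (adjusted p = 0.049 in edgeR). It had 65, 136 and 90 counts in si-eIF4E+M5 and 250, 180 and 150 counts in si-NC+M5 libraries. The alarmin genes S100A8 (0.52 ± 0.10) and S100A9 (0.33 ± 0.09) rose. LCN2, often used as a readout of this protein and chosen after its value was seen, had 678 FPKM in si-eIF4E+M5 and 720.5 FPKM in si-NC+M5 cells and did not pass (-0.12 ± 0.06, adjusted p = 0.26 in edgeR).

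**Figure D5:**
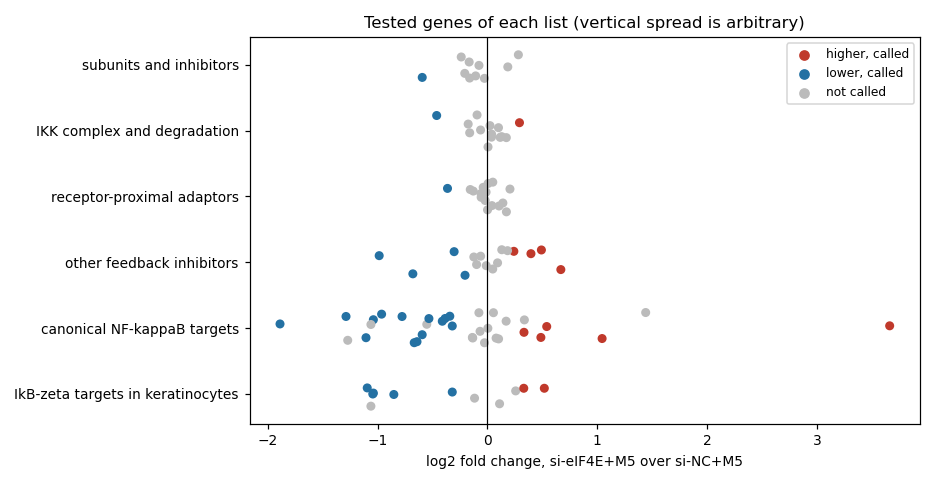
Log2 fold change (horizontal axis, si-eIF4E+M5 over si-NC+M5) of each tested gene in the set of 10 and in 5 other lists of the pathway, 1 point per gene, coloured by its call. The set of 10, the kinase list and the adaptor list hold 1, 2 and 1 called genes, and the called genes of the target lists lie on both sides of 0.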

How the data were processed

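The deposited table gives whole-number counts per gene and, beside them, FPKM from the authors. The submitters' processing notes name cutadapt 1.9, FastQC and build GRCh38. The aligner, counting tool, annotation and strand setting were not given in the sources used here. Ratios of count to FPKM, after division by the library total, varied by under 1% between libraries for 99.9% of the 9940 genes with over 500 counts in each.

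The test of the counts ran in edgeR 4.0.16 under R 4.3.3 (filterByExpr, minimum count 10, TMM scaling, quasi-likelihood fit, two-sided test, Benjamini-Hochberg adjustment over 18022 genes, called under 0.05). SE is the log2 fold change over the root of the F statistic, and 95% intervals use the moderated degrees of freedom. FPKM served for levels, shares and ratios. On simulated data the fit missed most changes as small as those of most of the 10 genes, and its share of false calls was above the adjusted p threshold. That simulation was a single draw and changed far fewer genes than were called in the data. How far its outcome holds for these data was not tested. Likeness to TNFAIP3 is Pearson's r of log2 CPM.

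The 10 genes and the lists were chosen with earlier results of these data known. From each list the text names up to 4 called genes per direction with the largest change and at least 1 FPKM in the higher group, with all 3 other I kappa B relatives and the 3 genes most like the member of smallest adjusted p. Between replicates of a group, chi-squared over its degrees of freedom ran from 23.1 to 27.8, so none is a copy of another. Alternatives were other scalings, DESeq2 1.42.0, limma 3.58.1 on log2(FPKM + 1) or log2(FPKM + 0.1), other filters, a robust spread, a block for the replicate number, and fits lacking 1 library. Exon overlaps come from GENCODE v29, whose gene bounds equal those of the table for 2 of the 10 genes, so it may not be the annotation behind the counts.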

Additional observations from a re-analysis of the deposited data

How the results depend on the processing

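TNFAIP3 was called lower in each of the 15 other settings run. Of 149 values of the 10 genes under other settings, 133 kept direction and side of the threshold, 11 passed it newly and 5 changed sign. The sign changes were all of NFKB1, at 0.0042 with upper quartile scaling, 0.0021 and 0.0022 with limma on log2(FPKM + 1) and log2(FPKM + 0.1), 0.019 when si-eIF4E+M5 replicate 1 was left out and 0.0045 when si-NC+M5 replicate 2 was, within a range of -0.0490 to 0.0195 over the 6 libraries left out. Called genes among the 10 numbered 2 (1 higher) with upper quartile scaling, with limma at both pseudocounts and with genes under a mean FPKM of 5 dropped, the addition being NFKBIA each time. DESeq2 called 3, of which 1 was higher and 2 lower, with NFKB2 (adjusted p = 0.043) as the further one. Of all 18022 tested genes, upper quartile scaling called 2908 and limma 2496 with log2(FPKM + 1) and 2523 with log2(FPKM + 0.1). The filter at a mean FPKM of 5 gave 2192 calls of 6772 genes, and DESeq2 gave 3434 of 29176 with a fold change. With 1 library left out, 1 to 2 of the 10 were called, 0 to 1 higher, and the additional one was REL. Over all genes, no filter on low counts gave 1818 calls, 801 of them higher, against 2853 and 1340, and leaving out 1 library gave 1598 to 2283 calls, 724 to 1168 higher and 874 to 1191 lower. The lowest of each came when si-NC+M5 replicate 2 was omitted, and counts also moved by over 1.5 times for higher genes when si-eIF4E+M5 replicate 2 (889) or 3 (848) was omitted and for lower genes when si-eIF4E+M5 replicate 1 (1001) was. For the kinase list 1 gene was called with no filter, 4 among genes averaging 5 FPKM or more and 1 to 2 with 1 library left out. The adaptor list gave 0 with no filter and with limma at both pseudocounts, and 0 to 1 with 1 library left out. The other feedback inhibitors gave 4 with no filter and 3 to 5 with 1 library left out, and the NFKBIZ-dependent list 4 to 7. The difference in RELB over RELA ran from -0.0492 to 0.0723 on the log2 scale with 1 library left out. The cause of these shifts was not tested. EIF4E, REL and NFKBIZ have a mean FPKM under 5 and gave no value with that filter.

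The replicate numbers are shared between the groups, but same-numbered libraries hardly deviated together (correlations 0.03, 0.03 and 0.04), so the numbers were not taken as pairs. Each library nonetheless correlated best with its own number. Among the 10 genes, the highest library had the same number in both groups for NFKB2, REL, RELA, RELB, NFKBIA and NFKBIE. It did not for NFKB1, NFKBIB, NFKBIZ and TNFAIP3. The same share over all tested genes was not computed, so this split is a description only. In order of number, RELB over RELA was 0.361, 0.371 and 0.320 in si-eIF4E+M5 and 0.352, 0.372 and 0.321 in si-NC+M5 libraries. The number of calls among the 10 therefore depends on this choice. With the replicate block edgeR called 5 of the 10 genes, 1 higher and 4 lower, adding NFKBIA (adjusted p = 0.023), NFKB2 (0.023), RELA (0.049) and NFKBIZ (0.049). In that fit 3414 of all 18022 tested genes were called.

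The addition of the AC010733.2 counts to REL was chosen after seeing the data. Each of the 10 genes had at least 1670 counts in every library, and whether depth limited their calls was not tested.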
